A study of Mus musculus with 12 samples.

Results

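Slc15a2, Slc15a3 and Slc15a4 are the members of the Slc15 family of proton-coupled peptide transporters that were counted in quantity in mouse splenic B cells. They make up 3 of the 23282 gene rows of the deposited count table. They were chosen by gene symbol with their counts in the 4 treatment groups already known, so the levels and fold changes of the 3 genes are a description and carry no test. The study measured polyadenylated RNA with QuantSeq 3' libraries, which read the 3' end of each transcript, in B cells taken from spleens on day 4 of a treatment course. The labels describe wild-type C57BL/6 mice, 7 weeks old, while the series text calls the animals lupus-prone. There were 4 groups of 3 libraries. Control mice had no treatment. ODN mice received 50 µg of CpG-ODN 1826, a class B oligonucleotide with unmethylated CpG motifs, into the peritoneum on days 1 and 3. IM156 mice received 30 mg/kg of IM156, a biguanide that inhibits mitochondrial respiration, by the same route on days 0 and 2. ODN+IM156 mice received both agents on those schedules. No vehicle for the controls, sex, number of animals per library, or batch is given, and the replicates are described only as experimental. The p-values given below for other genes therefore measure the spread between these samples, which may be technical.

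Slc15 proteins use the proton gradient across a membrane to carry dipeptides and tripeptides. Slc15a1 (PEPT1) and Slc15a2 (PEPT2) sit mainly at the plasma membrane, with PEPT2 known as the high-affinity carrier of kidney tubules and choroid plexus. Slc15a3 (PHT2) and Slc15a4 (PHT1) sit in endosomes and lysosomes of immune cells, also carry free histidine, and move bacterial muramyl peptides towards the NOD receptors in the cytosol. Slc15a4 is required for signalling by the endosomal receptors Tlr7 and Tlr9 in B cells and plasmacytoid dendritic cells, through the adaptor TASL and the transcription factor Irf5, and the gene is a known risk locus for lupus. CpG-ODN is a ligand of Tlr9.

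Total counts per library lay between 9650775 and 11532525. All 12 of 12 listed B-cell marker genes had counts, with a summed level of 12032 to 14891 CPM (counts scaled to a common library size, TMM-adjusted) over the 12 libraries. Among the ODN libraries, 2 stood apart. Replicate 3 had a single count (1) of Xist, which silences one X chromosome in female cells, while the other 11 libraries had 9701 to 13011. Replicate 2 had 1.46% of its counts on the ribosomal RNA row Rn45s, against 4.78% to 9.63% elsewhere. Its squared differences from replicates 1 and 3, per degree of freedom and relative to counting error, were 65.1 and 67.8, and 18.4 and 16.3 with that row left out, when replicates 1 and 3 differed by 22.2 from each other. The members' contrasts with the ODN group are therefore also given without each of these libraries. Of 11857 genes tested with edgeR's quasi-likelihood test, 10.6% passed an adjusted p below 0.05 between ODN and control. Between ODN+IM156 and IM156 2.47% passed, between ODN+IM156 and ODN 0.0675% (8 genes, and 794 without ODN replicate 3), and between IM156 and control 0%.

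The promoters of the member that differed most between groups, Slc15a2, and of the steadiest member, Slc15a4, are shown for comparison, the 2 ends of the range among the members. Of the 3 members, 2 have an entry in the RefSeq promoter table (GRCm38.p6). Each is written 5′ to 3′ on the minus strand, which both genes use. Each ends at the base before the annotated start of the main coding transcript, for which 24 bases were cut from the Slc15a4 entry. Another annotated coding transcript of Slc15a4 starts farther upstream, at 127632897, and the stretch before that start was not searched. The Slc15a2 stretch is chr16:36784963-36785212 with 250 bases, and the Slc15a4 stretch is chr5:127617417-127617642 with 226 bases.
Slc15a2: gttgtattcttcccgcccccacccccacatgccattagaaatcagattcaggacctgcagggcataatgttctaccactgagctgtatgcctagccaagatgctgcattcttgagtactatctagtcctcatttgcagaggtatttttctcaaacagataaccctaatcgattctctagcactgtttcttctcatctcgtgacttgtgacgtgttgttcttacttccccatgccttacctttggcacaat
Slc15a4: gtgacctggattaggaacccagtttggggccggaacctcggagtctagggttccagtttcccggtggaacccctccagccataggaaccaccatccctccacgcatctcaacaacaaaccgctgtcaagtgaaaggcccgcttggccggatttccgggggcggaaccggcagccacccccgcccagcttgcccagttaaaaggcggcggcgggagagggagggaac
The Slc15a2 stretch had a GC content of 45.2% and the Slc15a4 stretch 62.8%, on either side of the median of 52.4% over all promoters in the table. Both were searched on both strands for 4 motifs: GAAANNGAA, the core of the interferon-stimulated response element, TTCNNNGAA, the gamma-activated site, GGGNNTTCC of NF-kB, and CACGTG, the E-box of lysosomal genes. Neither stretch held any of them, so no base is in capitals. Over 32851 promoters of 250 bases, the motifs were present in 7.13%, 7.02%, 4.98% and 6.02%, so most promoters lack each one.

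Slc15a2 was the member that varied with treatment, and its lowest levels were in mice given both agents. The gene (ENSMUSG00000022899) lies on chromosome 16 at 36750177-36784962 of GRCm38, on the minus strand. Its main coding transcript has 22 exons and a coding length of 2220 bases. In control libraries its level was 16.7, 35.03 and 18.2 CPM, from 168, 386 and 188 counts. In ODN libraries it was 30.8, 19.8 and 33.01 CPM, from 296, 230 and 345 counts. These groups overlapped, and control replicate 2 was the highest library of all. In IM156 libraries the level was 7.78, 11.3 and 14.0 CPM, from 78, 121 and 164 counts, all below the lowest control. In ODN+IM156 libraries it was 3.11, 0.951 and 4.52 CPM, from 33, 9 and 51 counts, all below the lowest IM156 library. Counting error came close to bridging that gap. The exact Poisson 95% interval was 3.37 to 5.94 CPM for the highest ODN+IM156 library and 6.15 to 9.71 CPM for the lowest IM156 library. For the 9 counts of the lowest ODN+IM156 library it was 0.435 to 1.81 CPM. Such intervals cover counting error only, as reads without molecular identifiers are not independent molecules.

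The order of Slc15a2 levels was ODN (27.9 ± 7.11 CPM, SD, n = 3), control (23.3 ± 10.2), IM156 (11.0 ± 3.11) and ODN+IM156 (2.86 ± 1.80). The ODN and control libraries overlapped, with a log2 fold change of 0.25 (SE 0.31), while the lower steps were free of overlap. That value leaned on control replicate 2, the highest library, without which it was 0.67 (SE 0.32). Without ODN replicate 3 it was 0.10 and the ODN mean 25.3 CPM, and without ODN replicate 2 it was 0.45 and the mean 31.9 CPM (n = 2 each). IM156 alone went with a level 2.11-fold below control, a log2 fold change of -1.08 (SE 0.32), and 1 member of 3 had all IM156 libraries lower, against 5.25% of all genes tested. This value leaned on the same library: without control replicate 2 it was -0.66. ODN+IM156 was 3.77-fold below IM156 (log2 fold change -1.92, SE 0.38) and 7.96-fold below control (-2.99, SE 0.37). The widest gap was between ODN+IM156 and ODN, 9.48-fold (log2 fold change -3.24, SE 0.37), which ranked 3 from the lowest of 11857 genes. It was -3.09 without ODN replicate 3 and -3.44 without ODN replicate 2, and lay between -3.74 and -2.86 over all 12 libraries left out in turn. In that comparison 10% of all genes tested had all 3 ODN+IM156 libraries lower. The rule that chose the members used these contrasts, so nothing is read from their place in them.

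**Figure D1:**
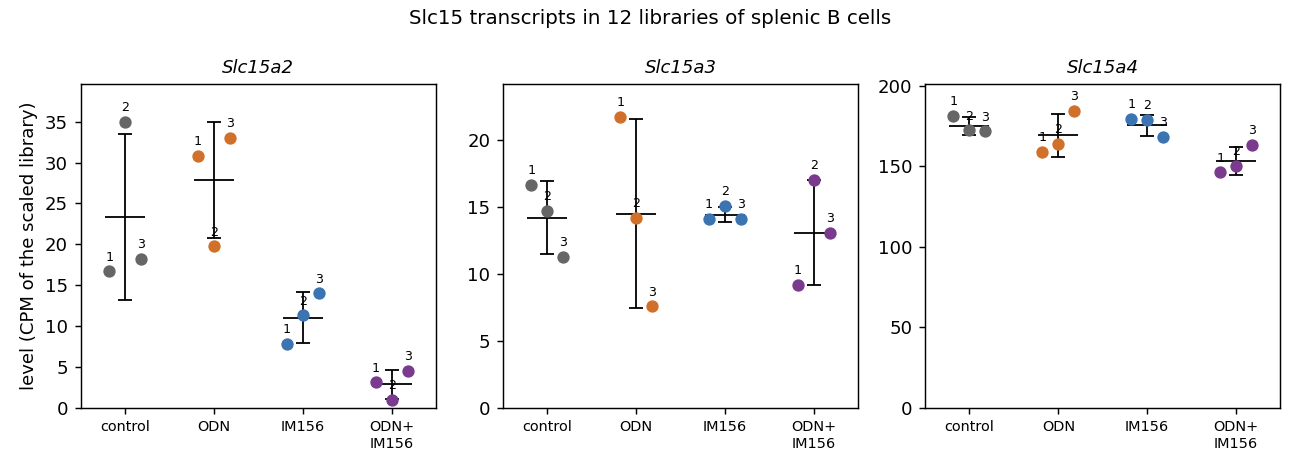
Level of Slc15a2, Slc15a3 and Slc15a4 (CPM of the scaled library, linear axes from 0, a scale of its own for each gene) in each of 12 libraries, numbered by replicate within the control, ODN, IM156 and ODN+IM156 groups; the horizontal bar is the mean and the whiskers are 1 SD (n = 3). Slc15a2 libraries of the ODN+IM156 group sit between 0.951 and 4.52 CPM, below all others, whereas the Slc15a3 groups overlap throughout.

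The effect of IM156 on Slc15a2 could also be read with and without the oligonucleotide. On top of ODN it was a log2 fold change of -3.24 and without ODN -1.08, a difference of -2.17 (SE 0.49), with -1.78 to -2.66 when single libraries were left out (-2.01 without ODN replicate 3, -2.37 without ODN replicate 2). In the same way, ODN went with a slightly higher mean in mice without IM156 and with a lower one in mice that received it. Slc15a2 was also a variable gene: its biological coefficient of variation was 27.1%, against a median of 12.4% over all genes tested, and 83.7% of genes had a lower dispersion. The replicate SDs above carry that spread.

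Marker genes of other cell types did not share this pattern as a block, but several moved with ODN. The summed level of 20 monocyte and macrophage markers was 62.7 to 110 CPM in control libraries, 67.1 to 116 with IM156, 126 to 278 with ODN and 160 to 234 with both agents, and all 20 had counts. The sum of 12 neutrophil markers was 6.00 to 9.54, 2.99 to 6.91, 24.5 to 89.9 and 20.2 to 26.1 CPM in the same order. The 10 platelet markers summed to 46.6 to 69.9, 64.2 to 66.7, 135 to 232 and 133 to 180 CPM, and the 11 markers of natural killer cells to 4.63 to 5.07, 3.69 to 5.42, 16.5 to 26.2 and 11.0 to 16.3 CPM, again in that order. These 4 sums were thus high in the 2 groups with ODN, in which Slc15a2 was highest and lowest. Much of the monocyte and macrophage rise was Ly6c2. Its mean was 11.3 CPM in control libraries, 10.5 with IM156, 92.3 with ODN and 78.6 with both agents. Of the other markers in that sum, Spic and Cd163 had lower means with ODN than in control, and the rest higher ones. The sum of 10 erythroid markers was 510 to 655 CPM in control libraries, 79.5 to 434 with IM156, 85.0 to 202 with ODN and 56.8 to 111 with both agents, and was thus lowest where Slc15a2 was lowest, with overlap between the treated groups. Plasma cell markers summed to 760 to 911 CPM in control libraries and 846 to 922 with IM156. With ODN they summed to 857 to 1020 CPM, and with both agents to 781 to 870. Their mean was highest with ODN (917) and lowest with both agents (819), as for Slc15a2, with overlap. Unlike for Slc15a2, the mean was higher with IM156 (881) than in control (851). Mzb1 rose most with ODN, from a mean of 449 CPM in control to 536. Sdc1, Prdm1, Irf4, Tnfrsf13b and Tnfrsf17 had lower means with ODN than in control, and the rest of the plasma cell markers higher ones. Conventional dendritic cell sums had means of 706, 712, 769 and 768 CPM in control, IM156, ODN and ODN+IM156 libraries. Most of that sum was Wdfy4 (460 CPM in control) and Ccr7 (187), so it says little about the smaller markers. Xcr1 had means of 5.125, 4.38, 8.44 and 19.04 CPM in the same order, and Itgax 4.61, 5.88, 10.8 and 12.9 CPM. Cd209a, Clec10a and Ccr7 had lower means with both agents than in control, and the rest of these markers higher ones. Plasmacytoid ones had 1298, 1310.5, 1275 and 1323 CPM, and T-cell ones 28.0, 29.4, 34.6 and 39.1 CPM. Most of the plasmacytoid sum was Tcf4 (657 CPM in control) and Spib (533). Siglech, with only 44 counts over all libraries, had means of 0.79, 0.24, 0.32 and 0.03 CPM in that order. Bst2, Cox6a2, Lair1 and Spib had higher means with both agents than in control, Cd300c had none in either, and the rest lower ones. The dendritic cell sums therefore do not show equal numbers of these cells in the groups. B-cell markers lay between 12998 and 13483 CPM in ODN+IM156 libraries, inside the range of the ODN group (12032 to 13812). The part of other cells in the Slc15a2 levels was not tested. In bulk RNA, fewer cells that express a gene and less RNA per cell cannot be told apart.

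Slc15a2 has 4 coding transcripts with 4 different annotated 3' ends, at positions 36750177, 36751778, 36771874 and 36771877, and 3' libraries count each end where it is used. The table gives 1 count per gene, so which end the counts come from was not analysed here. A processed pseudogene, Gm8425, overlaps the locus on the opposite strand. The nearest protein-coding neighbour upstream, Eaf2, 7922 bases away on the same strand, had 10.6 ± 1.04 CPM in control libraries, 9.59 ± 2.05 with ODN, 7.69 ± 2.78 with IM156 and 10.1 ± 3.35 with both agents (SD, n = 3). Eaf2, which encodes a transcription elongation factor partner, thus lacked the low level of Slc15a2 in the ODN+IM156 group.

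Slc15a4, the histidine and peptide transporter of the Tlr7 and Tlr9 compartment, varied least among the members, from 146 to 184 CPM over all libraries. The gene (ENSMUSG00000029416) lies on chromosome 5 at 127595664-127632897, on the minus strand, and its main coding transcript has 8 exons and a coding length of 1722 bases. Its level was 181, 172 and 171 CPM in control libraries, from 1771 to 1897 counts. In ODN libraries it was 159, 164 and 184 CPM, and in IM156 libraries 179, 179 and 168 CPM. These 3 groups overlapped, with log2 fold changes against control of -0.05 (SE 0.08) for ODN and 0.003 (SE 0.08) for IM156. Between ODN and control, 0 of the 3 members were free of overlap, against 24.4% of all genes tested. For Slc15a4 the overlap came from ODN replicate 3 alone: without it, both ODN libraries (159 and 164 CPM) were below every control and the log2 fold change was -0.12 (SE 0.09). Without ODN replicate 2 it was -0.03. In ODN+IM156 libraries the level was 146, 150 and 163 CPM, below every control and every IM156 library but overlapping with ODN.

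The group means of Slc15a4 were 175 ± 6.40 CPM in IM156, 175 ± 5.31 in control, 169 ± 13.4 in ODN and 153 ± 8.78 in ODN+IM156 libraries (SD, n = 3). Neighbours in this order did not differ beyond their spread. ODN+IM156 against control gave a log2 fold change of -0.19 (SE 0.08), and all 3 libraries were lower, as for 9.12% of all genes tested. Against IM156 it was -0.20 (SE 0.08), again with all 3 libraries lower, as for 11.8% of genes. The gap was a level 1.14-fold below control, beside the 7.96-fold gap of Slc15a2. Against ODN the log2 fold change was -0.14 (SE 0.08), and without ODN replicate 3, the highest ODN library for this gene, it was -0.07, and without ODN replicate 2 -0.16. The ODN mean was 161 CPM without replicate 3 and 172 CPM without replicate 2 (n = 2 each). Slc15a4 had a biological coefficient of variation of 7.62%, and only 1.91% of genes had a lower dispersion. The gene overlaps Glt1d1, which had 1 count in control, 1 in IM156 and 0 in the other groups, and Gm43474.

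Slc15a3, the other endolysosomal transporter, showed no difference between groups beyond the spread of its replicates. The gene (ENSMUSG00000024737) lies on chromosome 19 at 10839727-10859362, on the plus strand, and its 1 coding transcript has 8 exons and a coding length of 1734 bases. In control libraries its level was 16.6, 14.7 and 11.2 CPM, from 167, 162 and 116 counts. In ODN libraries it was 21.7, 14.2 and 7.56 CPM, from 208, 165 and 79 counts, which are both the highest and the lowest of all libraries. In IM156 libraries it was 14.1, 15.1 and 14.1 CPM, and in ODN+IM156 libraries 9.15, 17.0 and 13.0 CPM. All groups overlapped. The means were 14.2 ± 2.72, 14.5 ± 7.06, 14.4 ± 0.568 and 13.1 ± 3.93 CPM (SD, n = 3). Log2 fold changes were 0.02 (SE 0.28) for ODN and 0.02 (SE 0.28) for IM156 against control, and -0.15 (SE 0.28) for ODN+IM156 against ODN. The sign of all 3 values changed with single libraries left out: the ranges were -0.38 to 0.32, -0.12 to 0.15 and -0.44 to 0.26. Without ODN replicate 3 the first was 0.32, the last -0.44 and the ODN mean 17.9 CPM, and without ODN replicate 2 they were 0.04, -0.16 and 14.6 CPM (n = 2 each). Without ODN replicate 1 the first was -0.38 and the last 0.26. Its biological coefficient of variation was 22.9%.

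**Figure D2:**
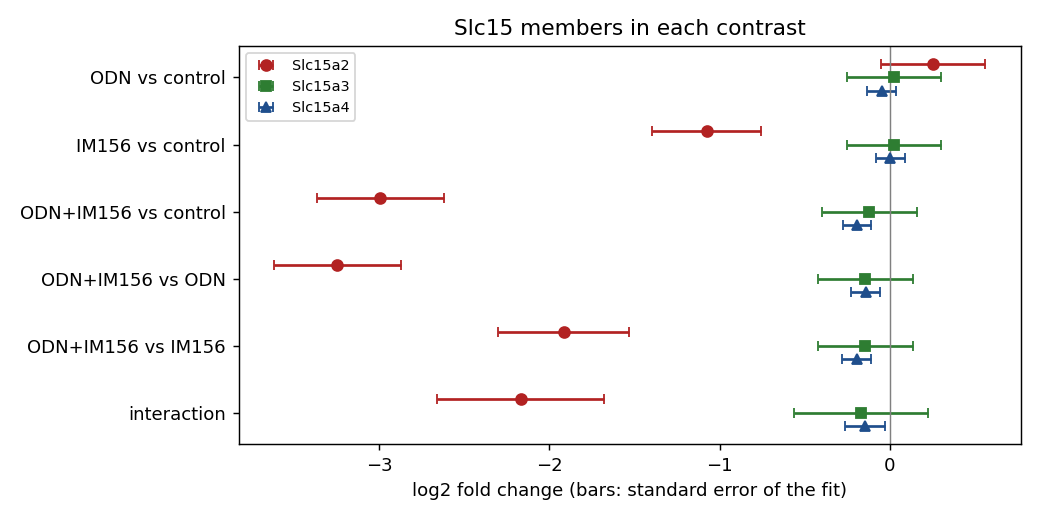
Log2 fold change of each of the 3 members (horizontal axis) in 5 comparisons and in the interaction, that is the IM156 effect on top of ODN less the IM156 effect alone; bars are the standard error of the fit to 12 libraries. Slc15a2 lies at -3.24 between ODN+IM156 and ODN, whereas Slc15a3 and Slc15a4 lie between -0.20 and 0.02 in every row.

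The counts of Slc15a3 come with a limit of position. Its coding transcript ends at 10857915, and Tmem132a, a gene for a membrane protein on the opposite strand, ends at 10857822, so that the last exons of the 2 genes share 94 bases at the very 3' ends that these libraries read. No rule for strand is given for the counting, and reads in the shared stretch then cannot be told apart. The counts of Tmem132a in control libraries were 112, 121 and 67, beside 167, 162 and 116 of Slc15a3. In ODN libraries they were 146, 108 and 56, beside 208, 165 and 79. In IM156 libraries they were 89, 112 and 119, beside 141, 161 and 165, and in ODN+IM156 libraries 61, 94 and 106, beside 97, 161 and 147. The counts of both genes thus went up and down together: per 100 counts of Slc15a3 there were 57.8 to 74.7 counts of Tmem132a. Over the 12 libraries the log2 levels had a Pearson r of 0.959 and a Spearman rho of 0.881, and r was 0.918 without the libraries of the highest and lowest Slc15a3 level. This pair was compared after its values had been seen, and the points share their libraries and, at this position, possibly their reads. The levels of Slc15a3 are therefore those of its row, of which an unknown part may belong to Tmem132a.

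**Figure D3:**
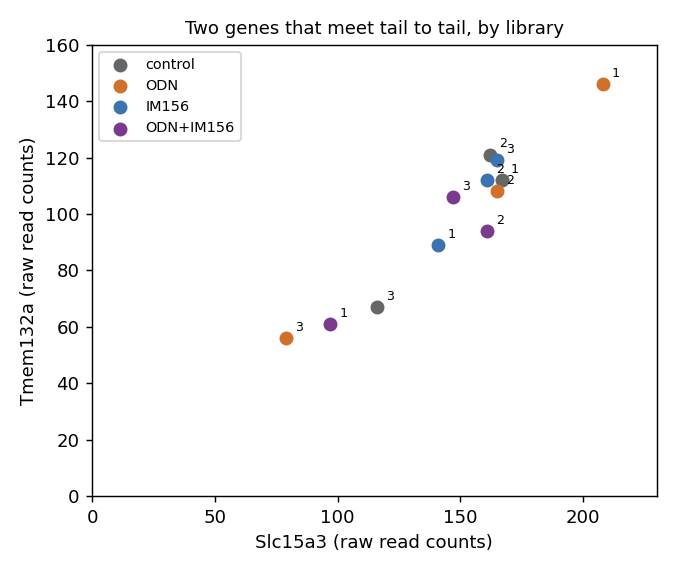
Raw read counts of Tmem132a against those of Slc15a3 in each of 12 libraries (linear axes from 0, coloured by group, numbered by replicate). The points lie along one line from ODN replicate 3 (79 and 56 counts) to ODN replicate 1 (208 and 146 counts).

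The 2 remaining family genes were at or near 0. Slc15a1 (PEPT1), the carrier of the gut lining, had 8, 4 and 6 counts in control libraries, 3, 6 and 8 with ODN, 5, 8 and 4 with IM156 and 10, 14 and 12 with both agents. The ODN+IM156 libraries, at 0.943 to 1.48 CPM, were above all others, at 0.312 to 0.795 CPM, but the gene was below the filter on low counts and was not tested. Slc15a5 had 0 of 126895836 counts in all libraries together, and 3 counts, the limit that a count of 0 allows, correspond to 0.0236 CPM. The family genes share little sequence: the coding sequences of the 10 pairs were 52.1% to 62.9% identical (Slc15a3 and Slc15a4 the most alike), with 0 shared stretches of 30 bases.

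The members did not follow each other across libraries. Over 12 libraries, log2(CPM + 1) of Slc15a2 and Slc15a3 had a Pearson r of 0.000498, and Slc15a3 and Slc15a4 of -0.125. Slc15a2 and Slc15a4 had 0.617, and 0.13 for deviations from the group means. The 5 genes most like Slc15a2 were Vps26a (r = 0.92, a retromer subunit), Mmp24 (0.904, a metalloproteinase), Cd48 (0.876, a lymphocyte surface protein), Rheb (0.866, the activator of mTORC1) and Oxnad1 (0.865). None of them spanned a range like that of Slc15a2: Vps26a had 53.1 CPM in ODN and 44.1 in ODN+IM156 libraries. For deviations from the group means, r with Slc15a2 was 0.832 for Vps26a, 0.884 for Mmp24 and 0.706 for Oxnad1. It was only 0.288 for Cd48 and 0.234 for Rheb, whose likeness lay mostly in the group means. Those most like Slc15a4 were Stxbp3 (0.86), Brms1l (0.852), Cry1 (0.84), Rngtt (0.838) and Ppp4r1 (0.831). Those most like Slc15a3 were Gpr108 (0.835), Gm10094 (0.82), Tmem9b (0.819), Btd (0.811) and Ehbp1l1 (0.805). Without ODN replicate 3, 3, 2 and 0 of these 5 were still among the first 5 for Slc15a2, Slc15a4 and Slc15a3. These values describe 12 points that share their groups and libraries, out of 8232 genes compared.

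The following 3 lists place the members among the genes they work with: Toll-like and NOD receptor signalling, lysosomal membrane transporters, and amino acid, peptide and histidine handling. In the signalling list, 32 of 34 genes could be tested, and none passed between ODN and control in edgeR, against 10.6% of all genes. At an unadjusted p below 0.05 there were 5, and DESeq2 called 2. The median log2 fold change of the list was 0.08, beside -0.00495 for all genes. The partners of Slc15a4, Tasl and Irf5, had no call. The gene 5430427O19Rik, known as Tasl and named so here from general knowledge, had 37.9 CPM in control libraries, 43.5 with ODN, 35.4 with IM156 and 35.2 with both agents. Irf5 had 124, 131, 126 and 120 CPM in the same order, and neither gene passed in any of the 4 comparisons (adjusted p by edgeR of 0.254 or above). For Tasl the log2 fold change between ODN+IM156 and ODN was -0.31 (SE 0.13). The lack of a call does not make its levels equal.

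The receptors of this pathway and the genes beside them had no call either. Unc93b1, which escorts nucleic-acid receptors to endosomes, had 597, 680, 596 and 682 CPM in this order of groups, and Tlr7, a receptor for single-stranded RNA, 61.2, 63.8, 60.7 and 67.1 CPM. Tlr9, the receptor for CpG-ODN, had only 68 counts over 12 libraries and was not tested. The annotation used for counting is not given, and whether it covers the 3' end in use was not analysed. The low count of Tlr9 therefore does not show that the cells lack the receptor. Myd88, the adaptor of both receptors, had 49.4, 55.7, 49.9 and 55.8 CPM. Among the sensors of muramyl peptides, Nod1 had 17.2, 21.1, 19.1 and 17.4 CPM, Nod2 1.86, 2.18, 1.59 and 1.91 CPM, and their kinase Ripk2 11.7, 10.1, 11.4 and 8.24 CPM. Those of these genes that could be tested passed in none of the 4 comparisons, which does not make their levels equal. Unc93b1 and Myd88 were higher, and Ripk2 lower, in every ODN+IM156 library than in every IM156 library. Between these groups, 24.6% of all genes tested were free of overlap in either direction.

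In mice that received IM156, adding ODN changed 2 of the 32 signalling genes, 1 in each direction, beside 2.47% of all genes. Irf7, the interferon regulatory factor downstream of Tlr7 and Tlr9, was at 17.6, 17.8 and 19.7 CPM in IM156 and 32.2, 24.0 and 30.8 CPM in ODN+IM156 libraries. It rose by a log2 fold change of 0.66 (SE 0.16, edgeR adjusted p = 0.0339), higher in 3 of 3 libraries. Ikbkb, the kinase that activates NF-kB, was at 290, 281 and 270 CPM in IM156 and 210, 192 and 208 CPM in ODN+IM156 libraries and fell by 0.46 on the log2 scale (SE 0.10, edgeR adjusted p = 0.0205), lower in 3 of 3 libraries. Both calls were lost without any 1 of the 3 IM156 libraries or ODN+IM156 replicate 1, that of Irf7 also without ODN+IM156 replicate 3 and that of Ikbkb also without ODN+IM156 replicates 2 and 3. The highest adjusted p was 0.148 for Irf7 and 0.113 for Ikbkb. IM156 changed 0 of the 32 genes against control and 0 on top of ODN by edgeR, with 1 and 3 at an unadjusted p below 0.05, and 0 and 0 by DESeq2.

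Of the lysosomal membrane transporters, 44 of 50 genes could be tested, and 1 changed with ODN, 2.27% of the list beside 10.6% of all genes. Mcoln2, a lysosomal cation channel, was at 31.3, 32.5 and 32.3 CPM in control and 18.4, 23.3 and 21.5 CPM in ODN libraries. It fell by 0.60 on the log2 scale (SE 0.15, edgeR adjusted p = 0.0122), lower in 3 of 3 libraries, and kept its call without any single library (adjusted p up to 0.0499). Between ODN+IM156 (25.7, 16.9 and 23.0 CPM) and IM156 (29.7, 35.4 and 36.9 CPM) it fell by 0.64 (SE 0.15, edgeR adjusted p = 0.0249), which was lost without IM156 replicates 2 or 3 or ODN+IM156 replicates 2 or 3 (up to 0.15). This was again 1 of 44 genes, 2.27%, beside 2.47% of all genes. Mcoln2 was thus lower with ODN whether or not IM156 was given. The amino acid sensor Slc38a9 had 88.9, 92.0, 88.3 and 81.7 CPM in control, ODN, IM156 and ODN+IM156 libraries, and the proton-coupled amino acid carrier Slc36a1 17.8, 13.8, 17.8 and 17.9 CPM, with no call. IM156 changed 0 of 44 genes against control and 0 on top of ODN by edgeR, with 1 and 1 at an unadjusted p below 0.05, and 0 and 0 by DESeq2. The list's medians in the 4 comparisons lay between -0.04 and 0.04 on the log2 scale.

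Of the genes for amino acid, peptide and histidine handling, 39 of 54 could be tested. With ODN, 4 changed, 2 in each direction, 10.3% of the list beside 10.6% of all genes. Carns1, the synthase of the histidine dipeptide carnosine, was at 87.1, 115 and 134 CPM in control and 41.5, 50.2 and 54.9 CPM in ODN libraries. It fell by 1.19 on the log2 scale (SE 0.13, edgeR adjusted p = 1.51e-05), lower in 3 of 3 libraries, and kept its call without any single library (up to 0.000257). In mice given IM156 it was at 113, 101 and 109 CPM, and with ODN added at 73.97, 69.2 and 69.2 CPM. There it fell by 0.60 (SE 0.13, edgeR adjusted p = 0.0142), and the call was lost without IM156 replicates 1 or 3 or ODN+IM156 replicates 2 or 3 (up to 0.0779). Carns1 and the peptide carrier Slc15a2 thus had different patterns, since the lowest Carns1 levels were in the ODN group and the lowest Slc15a2 levels in the ODN+IM156 group.

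The other calls with ODN were smaller or less firm. Blmh, a cytosolic cysteine peptidase, was at 58.2, 58.3 and 52.9 CPM in control and 81.9, 75.8 and 69.2 CPM in ODN libraries and rose by 0.42 (SE 0.11, edgeR adjusted p = 0.0206), a call lost without control replicate 3 or ODN replicate 1 (up to 0.092). Dpp9, a dipeptidyl peptidase of the cytosol, was at 43.6, 40.0 and 46.6 CPM in control and 34.3, 36.2 and 29.9 CPM in ODN libraries and fell by 0.38 (SE 0.12, edgeR adjusted p = 0.0478). Its call held in 2 of 12 fits with a library left out (up to 0.174). The last, Anpep, is named after its values were seen because its level was below the minimum of 10 CPM for named genes: it had 6 to 11 counts in control and 21 to 31 in ODN libraries (edgeR adjusted p = 0.0498), and held in 3 of 12 such fits. The monocyte, neutrophil, platelet and natural killer marker sums given above were also higher with ODN than in control, and their part in these calls was not tested. Cndp2, the cytosolic carnosine dipeptidase, had 9.64, 12.4, 9.70 and 10.6 CPM in control, ODN, IM156 and ODN+IM156 libraries, with no call. IM156 changed 0 of 39 genes against control and 0 on top of ODN by edgeR, with 2 and 6 at an unadjusted p below 0.05, and 0 and 1 by DESeq2.

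**Figure D4:**
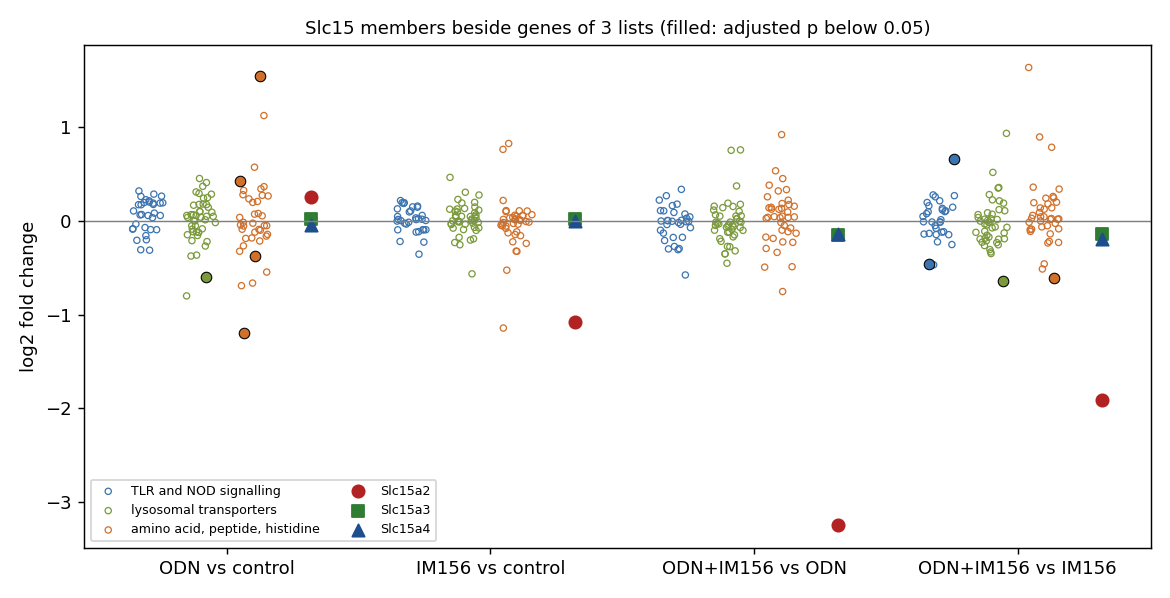
Log2 fold change (vertical axis) of every tested gene in 3 lists, one column of circles per list, in 4 comparisons; filled circles passed an adjusted p below 0.05, and the larger symbols at the right of each comparison are the 3 members, which carry no test. Slc15a2 lies below all genes of the 3 lists between ODN+IM156 and each single agent (-3.24 and -1.92).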

How the data were processed

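RNA of splenic B cells was measured in 12 libraries, 3 for each of 4 treatments. The authors deposited raw read counts per gene; per the submitters' processing notes, Bowtie2, bedtools, edgeR and GRCm38 (mm10) were used, and versions, annotation and strand rule are not given in the sources used here. Another 12 columns of per-sample values in the same table were not used. Here, the deposited counts were filtered with filterByExpr (defaults: minimum count 10, minimum total 15) and scaled by TMM. They were fitted with edgeR 4.0.16 (R 4.3.3) as 1 mean per group over 12 libraries (8 residual degrees of freedom). Quasi-likelihood tests were two-sided, with Benjamini-Hochberg adjustment over 11857 genes within each comparison and calls at 0.05. The interaction called 0% of genes by edgeR (1453 at an unadjusted p below 0.05, 165 by DESeq2 1.42.0). Scripts were tested on simulated data. Positions come from the GENCODE annotation of GRCm38.

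Members and lists were chosen with earlier results of these data known. Named genes are all Slc15 genes, up to 4 called genes per list and comparison with the largest change and a mean of at least 10 CPM, 13 fixed pathway genes, the 5 genes of highest r per member (log2 of CPM with a pseudocount of 1), and genes that overlap a member. Alternatives were other scalings, DESeq2, no filter, fits of 2 groups, a replicate block, removal of Rn45s, and leaving out each library. The precision of Slc15a2 and Slc15a3 is limited by counts of 9 to 386 per library.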

Additional observations from a re-analysis of the deposited data

How the results depend on the processing

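Of 339 alternative values of the members' log2 fold changes, 338 moved by less than 1 SD of log2(CPM + 1) between replicates, averaged over the groups compared; the exception was the Slc15a4 interaction, which lay between -0.195 and -0.0677 when single libraries were left out, the latter without ODN replicate 3. Against the standard error of the fit, 15 values of Slc15a2 and Slc15a3 moved by more, all with a library left out (control replicate 2, ODN replicates 1 or 3, or ODN+IM156 replicates 2 or 3). Counts of called genes moved more, and the cause was not tested. By DESeq2, 2 genes were called for IM156 against control, 373 for ODN+IM156 against ODN and 165 for the interaction; 2 signalling genes were called with ODN, and of amino acid and peptide genes 7 with ODN, 1 for ODN+IM156 against ODN and 2 against IM156. With no filter on low counts, 53, 664, 652 and 276 genes were called for IM156 against control, ODN+IM156 against ODN, ODN+IM156 against IM156 and the interaction, 1 signalling gene each with ODN and for ODN+IM156 against ODN, and 1 and 2 amino acid and peptide genes for ODN+IM156 against ODN and IM156. Scaling by library totals called 2 signalling genes with ODN. Fits of only the 2 groups compared gave 598 genes for ODN against control, 6 for IM156 against control, 1 for ODN+IM156 against ODN and 892 against IM156, with 1 and 2 amino acid and peptide genes for ODN against control and ODN+IM156 against IM156. With the replicate block, 3 genes were called for ODN+IM156 against ODN and 2 amino acid and peptide genes with ODN; it moved no other count by over 1.5 times. Same-numbered libraries did not deviate together (r of -0.114 to 0.0903 over 18 pairs, none above 0.1; 2 of 12 libraries closest to their own number), so they share only a number. Leaving out single libraries gave 763 (without ODN replicate 1) to 1874 genes for ODN against control, 0 to 1 for IM156 against control, 1 to 794 (without ODN replicate 3) for ODN+IM156 against ODN, 114 (without IM156 replicate 2) to 543 (without ODN replicate 1) for ODN+IM156 against IM156, and 0 to 260 (without ODN replicate 3) for the interaction. With ODN, 0 to 2 signalling, 1 to 3 lysosomal and 1 to 7 amino acid and peptide genes were called; for ODN+IM156 against ODN 0 to 2 of the last; and for ODN+IM156 against IM156 0 to 2, 0 to 1 and 0 to 2. Where an arm keeps 2 libraries, the spread is still pooled over all groups.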
